A study of Homo sapiens with 12 samples.

Results

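RNA was sequenced from HCT116 cells, an established line from a human colorectal carcinoma, after cells had recovered from methionine restriction in which UNC0642 was present, and was compared with RNA from cells labelled 0 h. The comparison took the 4 libraries of each of these groups, 8 of the 12 libraries of the series, and covered all 18969 genes listed in the deposited tables, of which 12575 had enough counts to be tested. The libraries of the DMSO vehicle group stayed out of it. In the recovery group the cells had spent 24 h in RPMI medium lacking methionine, with UNC0642, and then 24 h in RPMI medium with methionine and no inhibitor. The labels of the 0 h group name no treatment and do not say whether its cells were taken ahead of the methionine-free period or as it ended. Restriction, its reversal, the inhibitor and time in culture therefore differ together between the groups and cannot be told apart in this comparison. The labels do not tie replicates to separate cultures, and p-values refer to the spread among these libraries, which may be technical.

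Methionine is converted by methionine adenosyltransferases to S-adenosylmethionine, the methyl donor of histone, DNA and RNA methyltransferases. Transfer of the methyl group leaves S-adenosylhomocysteine, which is hydrolysed to homocysteine and remethylated to methionine with a folate carbon, or passed to cysteine and glutathione by transsulfuration. UNC0642 is an inhibitor of EHMT1 and EHMT2 (also called GLP and G9a), which add 1 or 2 methyl groups to lysine 9 of histone H3, a modification found in silent chromatin. A second system, in which KRAB zinc-finger proteins bring TRIM28 and SETDB1 to DNA, places the trimethyl mark on the same residue, and many of the KRAB zinc-finger genes lie in clusters on chromosome 19.

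The expected counts summed to between 14658082 and 18246690 per library at 0 h and between 17882236 and 19939398 after UNC0642 recovery, and 14335 to 14887 genes had a count. The epithelial markers EPCAM, KRT8, KRT18, KRT19 and CDH1 were present in every library, from 9.35 FPKM for CDH1 to 1789 FPKM for KRT8, whereas CDH17, VIL1, CEACAM5 and LGALS4, which mark differentiated colon epithelium, stayed at or below 0.20 FPKM in all 8. Of 20 markers of blood, fibroblasts, endothelium and liver, 13 were below 1 FPKM in every library, and the summed level of the list was 25.6 to 49.3 CPM at 0 h and 33.2 to 43.2 CPM after recovery. COL1A2, a fibroblast collagen, was above 1 CPM in 5 libraries (0 h replicates 1, 2 and 3, recovery replicates 3 and 4), and HBA1, HBB and COL3A1 of this list were called lower and COL1A1 and ACTA2 higher. Their part in the other results was not tested beyond a fit without those 5 libraries, which leaves 1 library against 2, called 2824 genes in all and is given beside selected results. Effective lengths were shorter than gene lengths by 2 distinct amounts in the deposited tables. Replicates 1 and 2 at 0 h and 2 and 3 after recovery had gaps of 119.9 to 124.0 bases, and the other 4 libraries had gaps of 101.3 to 102.6 bases, so each class held 2 libraries per group. The first principal component held 70.5% of the variance of the 8 libraries and separated the groups, and the biological coefficient of variation within groups was 3.52%. In bulk RNA, fewer cells of a type and less RNA per cell cannot be told apart.

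Close to the same number of genes rose and fell, but the rises reached further. With edgeR's quasi-likelihood test, 5906 of 12575 genes (47.0%) passed an adjusted p of 0.05, 2907 (23.1%) higher and 2999 (23.8%) lower after UNC0642 recovery. Changes over 1.5-fold were found for 597 of the genes called higher (4.75% of all tested) and 120 of those called lower (0.954%), and changes over 2-fold for 185 (1.47%) and 25 (0.199%). In 5098 genes (40.5%) the CPM of the groups did not overlap, 2575 higher (20.5%) and 2523 lower (20.1%). The split depended on the scaling. Higher genes made up 49.2% of the calls with TMM factors and 67.5% with library totals only, while the median log2 fold change moved from 0.004 to 0.064. The fit of log2 FPKM in limma, which also differs in test, pseudocount and filter, gave 67.2%. Gene length moved with the direction: 15.4% of the shortest 25% of genes (298 to 1911 bases) were called higher and 31.6% lower, against 31.5% higher and 18.7% lower in the longest 25%. The part of length in the calls was tested only by an offset that removed its trend. That fit made 5900 calls, 48.3% of them higher, and 5413 of the 5906 calls without the offset were among them in the same direction.

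**Figure D1:**
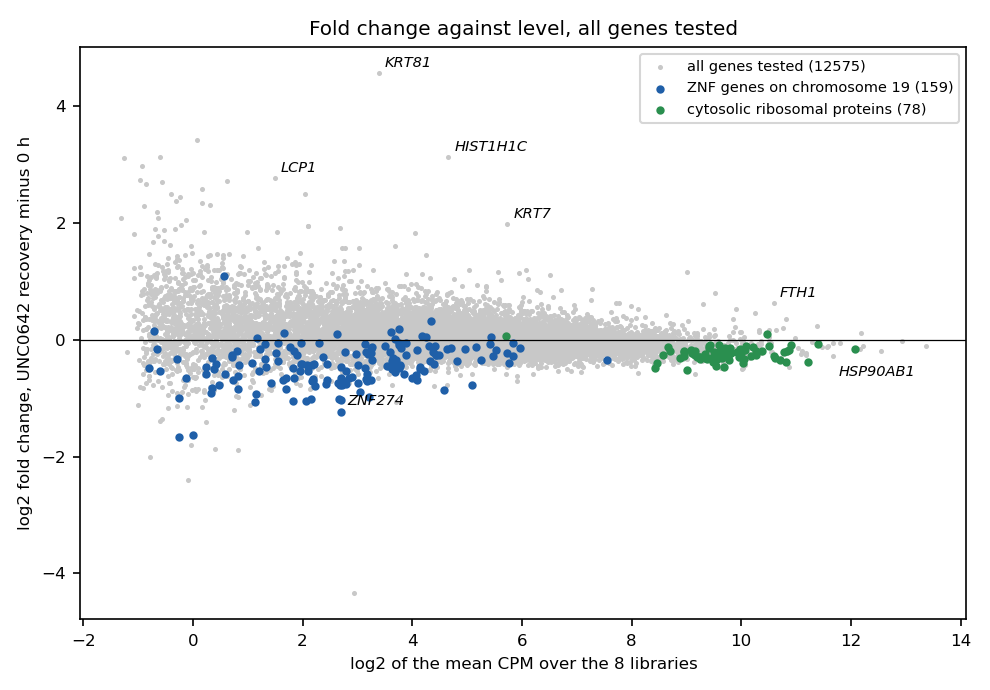
Log2 fold change (UNC0642 recovery minus 0 h) against the log2 of the mean CPM over the 8 libraries, 1 point per gene tested, with 159 ZNF genes on chromosome 19 in blue and 78 cytosolic ribosomal protein genes in green. The lowest point, TMSL3 at -4.34, rests on 1 library: it was at 57.3 CPM in 0 h replicate 2 and at 0.301 to 1.09 CPM in the other 7.

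Genes of the methionine cycle went in both directions. Of 11 members tested, 5 rose and 5 fell, against 23.1% and 23.8% of all genes, and with library totals only, as without the libraries above 1 CPM of COL1A2, 2 were called lower. MAT2A, the catalytic subunit of the widely expressed methionine adenosyltransferase, stood at 366, 381, 379 and 366 CPM at 0 h and 323, 314, 310.1 and 314 CPM after recovery. All 4 recovery libraries lay below all 4 at 0 h, and MAT2A fell by 0.25 ± 0.03 on the log2 scale (SE; adjusted p = 2.28e-09). AHCY, which hydrolyses S-adenosylhomocysteine, fell from a range of 385 to 409.9 CPM at 0 h to one of 316 to 319 CPM (-0.33 ± 0.03 log2, adjusted p = 3.39e-12). The regulatory subunit MAT2B (-0.10) and MTR and MTRR, which remethylate homocysteine and keep that enzyme active (-0.14 and -0.14), were also called lower. MAT1A, the methionine adenosyltransferase of liver, was near the detection limit at 0 h and went the other way: it was at 0.361, 0.224, 0.551 and 0.487 CPM at 0 h and 2.31, 2.85, 2.58 and 2.95 CPM after recovery. Its groups did not overlap, and the log2 fold change of 2.73 ± 0.30 (adjusted p = 3.26e-09) starts from under 1 CPM. AHCYL1 and AHCYL2, relatives of AHCY, rose by 0.28 and 0.30 on the log2 scale.

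Genes that supply folate-bound carbon were mostly lower. Of 23 tested in the serine and folate list, 12 fell (52.2%) and 2 rose (8.7%), against 23.8% and 23.1% of all genes. The median log2 fold change was -0.11, against 0.004 for all genes. The falls covered serine synthesis (PHGDH -0.19, PSAT1 -0.15, PSPH -0.21) and the mitochondrial folate arm (SHMT2 -0.19, MTHFD2 -0.21). MTHFD2 was at 364 to 382 CPM at 0 h and 316 to 331 CPM after recovery. GART, which uses formyl folate in purine synthesis, fell from a range of 280.2 to 289 CPM at 0 h to one of 234 to 241 CPM (-0.28 ± 0.03 log2). In transsulfuration and glutathione metabolism, 6 of 25 genes tested rose and 6 fell (24.0% each), near the shares of all genes. The sulfide-oxidising pair TST and SQRDL had the largest shifts among the 4 members named by smallest p: SQRDL stood at 9.62, 9.97, 9.64 and 8.98 CPM at 0 h and 19.9, 17.3, 17.3 and 17.9 CPM after recovery, and TST rose by 0.88 ± 0.08 on the log2 scale.

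In polyamine synthesis, which consumes decarboxylated S-adenosylmethionine, 7 of 16 genes tested fell (43.8%) and 4 rose (25.0%), against 23.8% and 23.1% of all genes. With library totals only 3 were called lower and 5 higher, so the direction of this tally depended on the scaling. ODC1, which makes putrescine, was at 933, 928, 929 and 897 CPM at 0 h and 687, 691, 705 and 718 CPM after recovery. This is a 1.32-fold lower level (log2 -0.40 ± 0.02, adjusted p = 6.19e-16), with no overlap. ADI1, a dioxygenase of the salvage pathway that rebuilds methionine, fell by 0.34 ± 0.04 log2. AZIN1, an inhibitor of the antizyme that degrades ODC1, rose by 0.17 ± 0.03 log2.

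The amino acid response was mixed. In the list of ATF4 and amino acid response genes, 10 of 30 tested rose (33.3%) and 7 fell (23.3%). The shares of all genes were 23.1% and 23.8%, and the median log2 fold change of the list was 0.02. ATF4 itself, the transcription factor translated when amino acids run short, fell from a range of 349 to 352 CPM at 0 h to one of 293 to 296 CPM (-0.25 ± 0.03 log2, adjusted p = 4.69e-10). ASNS, asparagine synthetase and a usual ATF4 target, was at 72.6, 76.1, 69.4 and 70.2 CPM at 0 h and 77.4, 82.95, 82.9 and 81.4 CPM after recovery. It rose by 0.17 ± 0.04 log2 (adjusted p = 0.00119), and PYCR1, a proline synthesis enzyme, fell by 0.35 ± 0.03. GDF15, a secreted stress hormone, was at 25.4 to 32.2 CPM at 0 h and 51.8 to 55.8 CPM after recovery and rose 1.89-fold. DDIT3, TRIB3 and CHAC1, other targets of the pathway, had log2 fold changes of 0.02, 0.12 and -0.02 and were not called. Among amino acid transporters, 7 of 25 tested rose and 7 fell (28.0% each), near the shares of all genes. SLC43A2, a carrier of large neutral amino acids such as methionine and leucine, stood at 26.2, 27.2, 28.2 and 25.5 CPM at 0 h. After recovery it was at 16.1, 15.1, 16.4 and 14.5 CPM, 1.73-fold lower, while the glutamate carrier SLC1A3 rose 1.73-fold. None of 22 cytosolic aminoacyl-tRNA synthetases rose and 15 fell, among them MARS, which charges methionine (-0.24 ± 0.03 log2).

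The inhibitor's targets changed little. EHMT2 was at 125, 124, 134 and 125 CPM at 0 h and 124, 122, 123 and 125 CPM after recovery. These groups overlapped (log2 -0.04 ± 0.03, adjusted p = 0.343). EHMT1 was at 90.7, 93.5, 93.7 and 90.4 CPM at 0 h and 86.6, 81.6, 82.3 and 85.6 CPM after recovery, and although the groups did not overlap the difference was -0.13 ± 0.04 log2 (adjusted p = 0.004), a call lost with library totals, with log2 FPKM, in the short-gap libraries alone and without the 5 libraries above 1 CPM of COL1A2. Transcript levels do not report on enzyme activity, which an inhibitor acts on.

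Other genes of histone H3 lysine 9 methylation were called lower more often than higher, by small amounts. Of 16 methyltransferases and cofactors tested, 6 fell (37.5%) and 1 rose, of 17 readers 7 fell (41.2%) and 1 rose, and of 13 demethylases 6 fell (46.2%) and 1 rose, beside 23.8% of all genes lower and 23.1% higher. With library totals only, 2 of the methyltransferases and cofactors were called lower and 1 higher, 5 of the readers lower and 3 higher, and 5 of the demethylases lower and 1 higher. SETDB1, which places the trimethyl mark with TRIM28, was at 45.6, 48.1, 47.3 and 44.5 CPM at 0 h and 36.2, 39.01, 36.2 and 41.99 CPM after recovery. It fell by 0.28 ± 0.05 log2, and TRIM28 by 0.13 ± 0.02. SUV39H1 and SUV39H2, the enzymes of pericentric heterochromatin, were at -0.15 and -0.17 log2 and both were called. Among readers and demethylases, the HP1 protein CBX3 (-0.17 ± 0.03), the demethylase KDM1A (-0.20 ± 0.03) and PHF8 (-0.29 ± 0.05) fell. Of 31 methyltransferases for other histone residues and for arginine, 12 fell (38.7%) and 5 rose (16.1%), but with library totals only 5 were called lower and 5 higher. Among them was PRMT1, the main asymmetric arginine methyltransferase, at 462 to 498 CPM at 0 h and 364 to 381 CPM after recovery. Of 17 DNA methylation genes 3 fell (17.6%) and 1 rose, below the shares of all genes. In the fit without the libraries above 1 CPM of COL1A2 (1 library at 0 h against 2), 3 of the writers, 2 of the readers and 3 of the demethylases were called lower.

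The largest falls were in zinc-finger genes. Of the 20 largest falls at a mean log2 CPM of at least 1 with no overlap of the groups, 13 were ZNF genes on chromosome 19, and ZFP30 on the same chromosome and ZNF502 on chromosome 3 are of the same family. ZNF274, a KRAB zinc-finger protein known to bind the ends of other zinc-finger genes and to bring SETDB1 there, fell the most of the 20: it was at 10.3, 8.79, 8.402 and 9.05 CPM at 0 h and 3.94, 3.77, 4.101 and 3.82 CPM after recovery. Every recovery library was under 5 CPM and every 0 h library above 8 CPM, a 2.34-fold lower level (log2 -1.23 ± 0.12, adjusted p = 4.81e-10).

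The promoters of 4 of these genes carry the same motif and are shown for it. Each line gives 120 bases in the direction of transcription from RefSeq (GRCh38.p14), chosen after the matches were seen, with the ETS motif CCGGAAGT or its reverse complement ACTTCCGG in capitals.
ZNF274: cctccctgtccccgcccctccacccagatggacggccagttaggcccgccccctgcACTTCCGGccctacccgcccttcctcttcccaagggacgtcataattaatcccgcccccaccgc
ZNF134: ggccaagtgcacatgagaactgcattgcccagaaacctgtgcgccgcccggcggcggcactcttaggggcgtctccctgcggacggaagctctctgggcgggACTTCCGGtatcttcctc
ZNF283: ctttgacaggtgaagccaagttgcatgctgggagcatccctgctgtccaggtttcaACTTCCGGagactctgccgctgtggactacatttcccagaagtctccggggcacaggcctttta
ZNF567: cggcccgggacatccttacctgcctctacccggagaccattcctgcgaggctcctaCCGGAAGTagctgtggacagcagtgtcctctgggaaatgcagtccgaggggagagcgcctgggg
The stretches lie before the annotated start of each gene, at chr19:58182921-58183040, plus strand, 140 to 21 bases upstream of the start (ZNF274), chr19:57614122-57614241, plus strand, 120 to 1 bases upstream of the start (ZNF134), chr19:43827178-43827297, plus strand, 143 to 24 bases upstream of the start (ZNF283) and chr19:36666774-36666893, plus strand, 160 to 41 bases upstream of the start (ZNF567). The motif was searched on both strands in the 250 bases upstream of 10202 tested genes with a RefSeq promoter, and 7.22% held it. It was in 3.73% of the promoters of genes called higher and in 11.8% of those of genes called lower. Within the ZNF genes of chromosome 19, however, 10 of 84 called lower (11.9%) and 13 of 55 not called (23.6%) held it. The other motifs searched do not contain these letters. The CCAAT box was in 35.1% of all promoters, and in 53.6% and 50.9% of these ZNF groups. A match describes the letters and is not a binding site.

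Values of the printed genes besides ZNF274 were close to each other. ZNF134 was at 8.42, 8.68, 9.16 and 8.42 CPM at 0 h and 5.37, 3.94, 3.52 and 4.15 CPM after recovery. ZNF283 was at 6.01, 4.93, 7.37 and 5.57 CPM at 0 h and 3.004, 3.17, 2.73 and 2.84 CPM after recovery. ZNF567 was at 8.96, 8.06, 8.13 and 8.84 CPM at 0 h and 3.74, 4.16, 4.995 and 3.93 CPM after recovery. Each fell about as far, with log2 fold changes of -1.03 ± 0.13, -1.02 ± 0.15 and -1.02 ± 0.13, and in none did a recovery library reach the lowest 0 h library. ZNF480 had the highest level of the ZNF genes among the 20 falls, 29.6 to 33.2 CPM at 0 h and 16.6 to 17.5 CPM after recovery, and the smallest adjusted p (4.94e-13), at -0.85 ± 0.06 log2. The other ZNF genes of the 20 were ZNF613, ZNF416, ZNF530, ZNF266, ZNF577, ZNF559, ZNF502, ZNF235 and ZNF850, at -1.06 to -0.79 log2. In the fit of 1 library against 2 that leaves out those above 1 CPM of COL1A2, ZNF613 (-0.66), ZNF577 (-0.72), ZNF235 (-0.57) and ZFP30 (-0.69) were lower but no longer called, and ZNF502 lost its call in the short-gap libraries (-0.57). Zinc-finger genes share long similar stretches, so reads may be split between them.

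**Figure D2:**
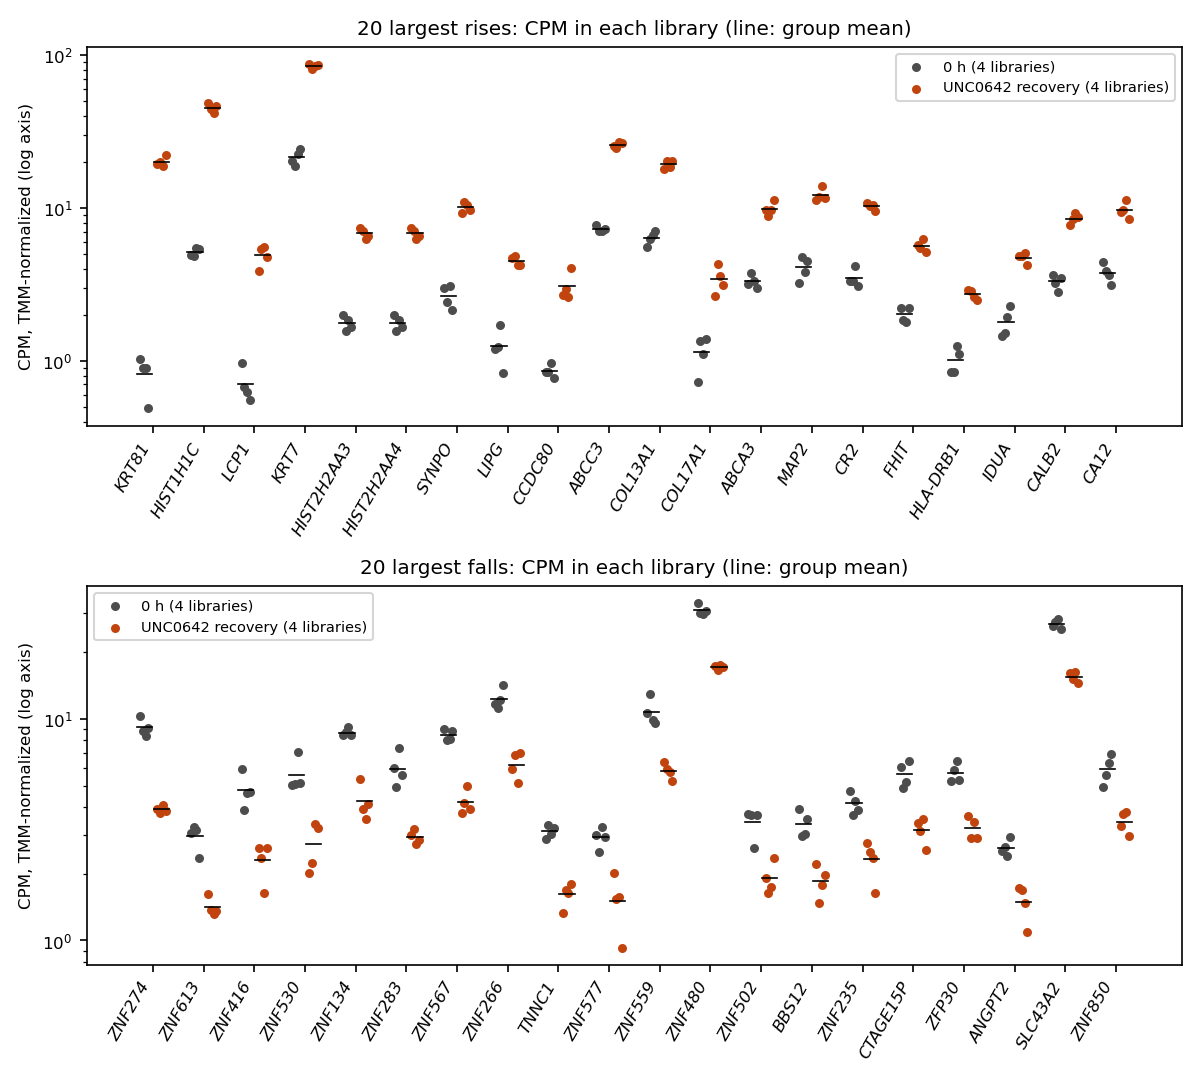
CPM of the 20 largest rises (top) and 20 largest falls (bottom) in each of the 4 libraries at 0 h (grey) and after UNC0642 recovery (orange), on log axes, with lines at the group means. No gene shown has overlapping groups, which was part of the rule that chose them, and KRT81 spans 0.487 to 22.2 CPM.

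The falls of ZNF genes were counted by chromosome. Of 159 ZNF genes tested there, 95 fell (59.7%) and 2 rose, with a median log2 fold change of -0.42, and 48 fell over 1.5-fold, which was 48 of the 120 such genes in all. Of 228 ZNF genes on other chromosomes, 64 fell (28.1%) and 24 rose (median -0.08), and 8 fell over 1.5-fold. The 742 other genes tested on chromosome 19 gave other values: 206 fell (27.8%), 157 rose, and the median was -0.03. In 83 of the 159 genes every recovery library was below every 0 h library, against 20.1% of all genes tested. The ZNF genes of chromosome 19 had a median of 8.67 CPM at 0 h and those elsewhere 15.3 CPM, and the difference between the chromosomes and the part of level in it were not tested.

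**Figure D3:**
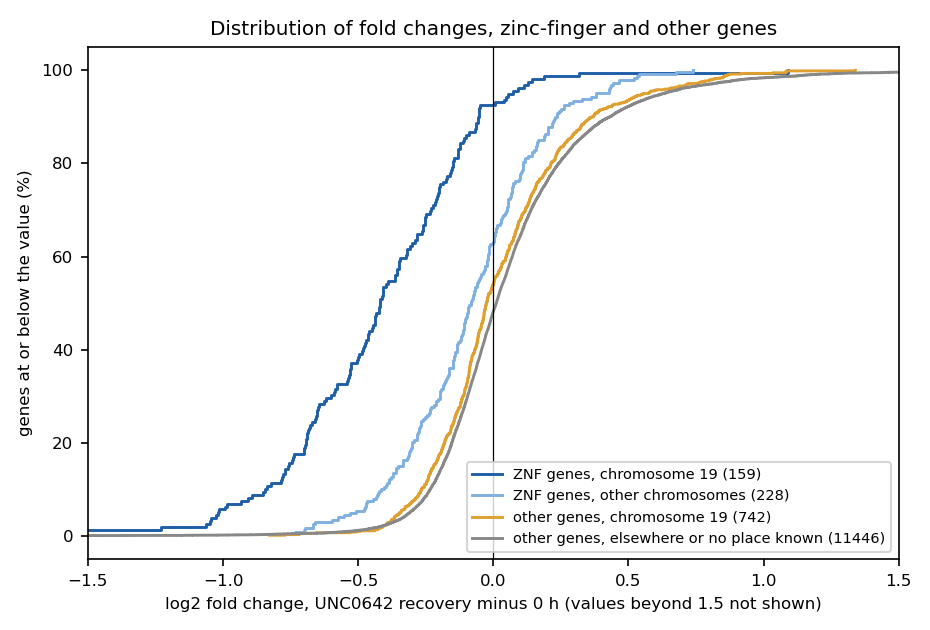
Cumulative share of genes (vertical axis, %) at or below each log2 fold change (horizontal axis, UNC0642 recovery minus 0 h) for ZNF and other genes on chromosome 19 and elsewhere. The curve of the 159 ZNF genes on chromosome 19 lies to the left of the others, with its median at -0.42, while the 742 other genes of that chromosome have a median of -0.03.

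The remaining genes among the 20 largest falls belong to no zinc-finger family. TNNC1, the calcium-binding troponin of slow and cardiac muscle, was at 2.88, 3.31, 3.03 and 3.202 CPM at 0 h and 1.33, 1.696, 1.63 and 1.802 CPM after recovery, with a log2 fold change of -0.95 ± 0.20. ANGPT2, a ligand of the endothelial receptor TIE2, fell by 0.81 ± 0.22 and BBS12, a chaperonin-like protein of the cilium, by 0.85 ± 0.20. Both lost their calls in part of the libraries: ANGPT2 in the long-gap libraries alone (-0.70) and without those above 1 CPM of COL1A2 (-0.78), BBS12 in the short-gap libraries alone (-0.65) and in the latter fit (-0.94). CTAGE15P, which resembles other CTAGE genes and is uncertain for that reason, and SLC43A2 complete the 20.

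The largest rise was in KRT81, a hair keratin. It was at 1.02, 0.896, 0.895 and 0.487 CPM at 0 h and 19.6, 19.9, 18.8 and 22.2 CPM after recovery. All recovery libraries were above 18 CPM and all 0 h libraries near or below 1 CPM, a 23.8-fold difference (log2 4.57 ± 0.15, adjusted p = 3.64e-23). KRT81 and KRT86 are close copies, and KRT86, named after its values were seen, was at 3.42 log2, so the reads of this pair may be shared. KRT7, a keratin of simple ductal epithelia, was at 20.4, 18.9, 22.6 and 24.3 CPM at 0 h and 87.4, 80.98, 84.7 and 86.8 CPM after recovery and rose 3.96-fold. Of 26 keratins listed 12 had enough counts to be tested. Among these 9 rose (75.0%) and none fell, against 23.1% and 23.8% of all genes. The keratins that rose included the abundant KRT8, KRT18 and KRT19 (0.24, 0.13 and 0.23 log2), KRT80 (0.76 ± 0.06) and the intestinal keratin KRT20 (1.62).

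Histone transcripts moved in both directions. HIST1H1C, a linker histone also called H1-2, was second in size. It stood at 4.93, 4.87, 5.51 and 5.43 CPM at 0 h and 48.5, 44.3, 41.7 and 46.9 CPM after recovery with a wide gap between the groups, and the difference was 8.76-fold (log2 3.13 ± 0.08, adjusted p = 4.17e-26). Its promoter is shown because replication-dependent histone genes are known for CCAAT boxes close to the start; the match is in capitals.
HIST1H1C: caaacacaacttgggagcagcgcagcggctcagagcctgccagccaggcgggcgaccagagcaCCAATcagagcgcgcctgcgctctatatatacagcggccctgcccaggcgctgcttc
This RefSeq stretch (GRCh38.p14) is at chr6:26056471-26056590, minus strand, 120 to 1 bases upstream of the start. HIST2H2AA3 and HIST2H2AA4, identical copies whose reads cannot be told apart, were listed with the same values, 1.98, 1.57, 1.86 and 1.67 CPM at 0 h and 7.39, 7.11, 6.26 and 6.55 CPM after recovery, and rose 3.85-fold. In the whole list, with these copies counted separately, 6 of 21 histone genes tested rose (28.6%) and 10 fell (47.6%). The shares of all genes were 23.1% and 23.8%, and with library totals only 9 histone genes were called higher and 7 lower. H1F0, the linker histone of resting cells, fell from a range of 303 to 327 CPM at 0 h to one of 222 to 234 CPM (-0.45 ± 0.03 log2), and HIST1H1E, named after its values were seen, was at -1.21 ± 0.28 log2 (adjusted p = 5.09e-04). Most replication-dependent histone messages lack a poly(A) tail, and the labels do not say how RNA was selected for the libraries.

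Genes of epithelial attachment and the cytoskeleton were called higher more often than all genes, and lower about as often. LCP1, the actin-bundling protein plastin of blood cells and of many carcinomas, was at 0.962, 0.672, 0.62 and 0.557 CPM at 0 h and 3.84, 5.42, 5.57 and 4.805 CPM after recovery, a 6.84-fold rise. SYNPO, an actin-associated protein of podocytes and dendritic spines, was at 3.01, 2.41, 3.099 and 2.16 CPM at 0 h and 9.26, 10.9, 10.5 and 9.66 CPM after recovery (3.76-fold), and MAP2, a microtubule-binding protein of neurons, at 3.25, 4.76, 3.79 and 4.52 CPM at 0 h and 11.3, 11.8, 13.99 and 11.6 CPM after recovery (2.96-fold). In each the groups lay well apart. In the list of cytoskeleton and actin-binding genes 24 of 43 tested rose and 9 fell (median log2 fold change 0.12). Of the laminin, integrin and hemidesmosome list 13 of 18 rose (72.2%) and 4 fell (22.2%), the falls again near the share of all genes. COL17A1, the transmembrane collagen of hemidesmosomes, was at 0.721, 1.34, 1.102 and 1.39 CPM at 0 h and 2.66, 4.32, 3.58 and 3.11 CPM after recovery. LAMA3 rose 2.28-fold and ITGB4 1.55-fold. COL13A1, another transmembrane collagen, rose 3.03-fold. The actin message ACTB was higher by 0.11 ± 0.02 log2, a call lost without the libraries above 1 CPM of COL1A2 (0.08).

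Several of the other 20 largest rises encode transporters and enzymes of the cell surface. ABCC3, an exporter of conjugated compounds, was at 7.75, 7.11, 7.03 and 7.24 CPM at 0 h and 25.3, 24.7, 27.1 and 26.8 CPM after recovery and rose 3.55-fold. ABCA3, a lipid transporter of lamellar bodies, rose 2.97-fold. Of 27 ABC transporters tested 16 rose (59.3%) and 3 fell (11.1%), against 23.1% and 23.8% of all genes. LIPG, endothelial lipase, was at 1.202, 1.23, 1.72 and 0.835 CPM at 0 h and 4.73, 4.87, 4.26 and 4.204 CPM after recovery (3.6-fold). Of 28 genes of lipase and fatty acid handling 9 rose (32.1%), 1 fell (3.6%) and 18 were not called. CA12, a carbonic anhydrase of the plasma membrane, rose 2.56-fold, CALB2, the calcium-binding protein calretinin, 2.56-fold, IDUA, a lysosomal glycosidase, 2.66-fold and FHIT, a dinucleoside triphosphate hydrolase, 2.79-fold. CCDC80, an extracellular matrix protein, rose 3.58-fold and CR2, a complement receptor of B cells, 2.96-fold. HLA-DRB1, an MHC class II chain that resembles other DRB genes and is uncertain, was at 0.84 to 1.24 CPM at 0 h and 2.51 to 2.905 CPM after recovery. None of these calls was lost in any of the 24 alternative fits.

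Measured as the gain in CPM, abundant genes led. FTH1, the ferritin heavy chain, gained 661 CPM, from 1220.3, 1208, 1213 and 1199.8 CPM at 0 h to 1895, 1807, 1870.1 and 1914 CPM. ALDH1A3, which makes retinoic acid from retinal, stood out among abundant genes by its fold: it was at 317, 312, 324 and 317 CPM at 0 h and 714, 699, 691 and 744 CPM after recovery, 2.24-fold higher (log2 1.16 ± 0.03, adjusted p = 2.76e-27). The metallothionein MT2A went from a range of 521 to 550.0 CPM at 0 h to one of 904 to 968 CPM (1.74-fold) and the calcium-binding S100A6 from a range of 485 to 514 CPM at 0 h to one of 746 to 788 CPM (1.53-fold). KRT8, FASN, TMSB10, ACTB, SCD and FLNA complete the 10 largest gains, of 245 to 442 CPM. Ferritin, thymosin, S100 and metallothionein messages have close copies and are uncertain for that reason.

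Lipid synthesis genes rose. Of 21 genes of fatty acid synthesis tested 17 rose (81.0%) and none fell, and of 28 genes of cholesterol synthesis and uptake 19 rose (67.9%) and 3 fell (10.7%). The shares of all genes were 23.1% higher and 23.8% lower. SCD, the stearoyl-CoA desaturase, was at 771, 814, 762 and 794 CPM at 0 h and 1093, 1174, 1154 and 1122 CPM after recovery, and FADS2, a desaturase of polyunsaturated fatty acids named after its values were seen, rose by 0.75 ± 0.08 log2. FASN, fatty acid synthase, was at 1499, 1575, 1676 and 1569 CPM at 0 h and 1924, 2062, 2077 and 2012 CPM after recovery. Its recovery libraries all exceeded the highest 0 h library, with a log2 fold change of 0.35 ± 0.03. INSIG1, which retains the sterol sensor in the endoplasmic reticulum, rose 1.42-fold. The sterol genes that fell included SQLE (-0.12 ± 0.04) and CYP51A1 (-0.13 ± 0.03), and the falls in this list depended on the setting: at most 1 gene of the list was called lower with library totals only, in the long-gap or the short-gap libraries alone, or without those above 1 CPM of COL1A2. Of 12 LXR targets and sterol efflux genes 7 rose (58.3%) and none fell. In the fit of 1 library against 2 without those above 1 CPM of COL1A2, 10 and 12 of the fatty acid and cholesterol genes were called higher.

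Interferon-stimulated genes rose while ISG15 fell. In the list of interferon-stimulated and RNA sensor genes 20 of 35 tested rose (57.1%) and 1 fell (2.9%), against 23.1% and 23.8% of all genes. The median log2 fold change was 0.35, and 13 of the 48 listed were too low to test, MX1, OAS1, IFI27 and IFI44 among them. OAS3, a sensor of double-stranded RNA, rose by 0.52 ± 0.04 log2, DTX3L by 0.69 ± 0.07 and, named after its values were seen, IFIT2 by 1.79 ± 0.44. ISG15, a ubiquitin-like modifier, was at 77.8, 74.3, 70.4 and 68.1 CPM at 0 h and 46.1, 48.1, 45.7 and 49.6 CPM after recovery, so that it was 1.54-fold lower with no overlap. In antigen presentation 9 of 17 genes rose (52.9%) and 3 fell (17.6%). The summed level of that list was nevertheless lower after recovery, at 2854 to 2987 CPM, than at 0 h, at 3025 to 3113 CPM. PSMB9, the immunoproteasome subunit, was at 2.77, 2.91, 1.93 and 2.71 CPM at 0 h and 6.25, 6.67, 6.31 and 6.01 CPM after recovery and rose 2.42-fold.

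Targets of p53 were also higher, at 17 of 30 tested (56.7%) with 4 lower (13.3%), against 23.1% and 23.8% of all genes. CDKN1A, the cyclin-dependent kinase inhibitor p21, was at 114, 109.5, 107 and 106 CPM at 0 h and 199, 194, 203 and 204 CPM after recovery, 1.82-fold higher (log2 0.87 ± 0.03, adjusted p = 4.78e-21). BTG2, an antiproliferative p53 target, rose 1.496-fold. Of NRF2 targets 10 of 27 rose (37.0%) and 7 fell (25.9%), the falls near the share of all genes. The exporter ABCC2 was at 30.3 to 36.3 CPM at 0 h and 64.05 to 67.7 CPM after recovery. Of iron genes 9 of 17 rose (52.9%) and 2 fell (11.8%). LCN2, an iron-siderophore binding protein, was at 0.24, 0.504, 0.207 and 0.278 CPM at 0 h and 2.17, 1.86, 1.89 and 1.802 CPM after recovery.

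The broadest fall was in genes of protein synthesis. Of 78 cytosolic ribosomal proteins tested 76 fell (97.4%) and 1, RPL41, rose (1.3%), against 23.8% and 23.1% of all genes. The median log2 fold change was -0.25, or -0.15 with the trend of gene length removed. RPS21 was at 641, 603, 579 and 616 CPM at 0 h and 439, 413, 428 and 425 CPM after recovery, and RPL12 at 1232, 1182, 1159 and 1176 CPM at 0 h and 914, 884, 902 and 919 CPM after recovery. Both groups lay apart in each gene, yet the falls were 1.43-fold and 1.31-fold, small beside those of the zinc-finger genes. Of 44 ribosome biogenesis genes 37 fell and 1 rose, among them NPM1 (-0.22 ± 0.02) and FBL (-0.33 ± 0.03), which act in the nucleolus. Of 43 translation factors 32 fell and 1 rose: EIF5A, the factor that carries hypusine, was at 1859.6, 1811, 1864 and 1964 CPM at 0 h and 1501, 1369, 1442 and 1536 CPM after recovery, 1.28-fold lower. Ribosomal protein genes have many copies, and EIF3C has a near-identical partner, so single values are uncertain.

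Mitochondrial and protein quality control genes fell as well. Of 69 oxidative phosphorylation genes 51 fell and none rose, and of 76 mitochondrial ribosomal proteins 50 fell and none rose. NDUFB8, a subunit of complex I, was at 199, 183, 189.5 and 195 CPM at 0 h and 142, 136, 136 and 147 CPM after recovery. Of 36 proteasome subunits 24 fell and 2 rose (PSMB9 and PSMC2), of 39 heat shock chaperones 24 fell (15 with library totals only) and 5 rose, and of 34 genes of the endoplasmic reticulum 16 fell and 3 rose. HSP90B1, the chaperone of that compartment, was at 1216, 1219.9, 1194 and 1198 CPM at 0 h and 869.9, 854, 856 and 835 CPM after recovery, 1.42-fold lower, while its cytosolic relative HSP90AB1 had the largest loss of transcripts, 783 CPM fewer, at 1.14-fold. EEF1A1, AKAP12, RPL8, MTRNR2L2, GAPDH, RPSA, RPS2, TUBA1B and EIF5A had the next largest losses. EEF1A1 lost its call with log2 FPKM (-0.05), and MTRNR2L2 resembles mitochondrial ribosomal RNA and is uncertain. Counts of these short genes moved with the length correction. With the length trend removed 64 cytosolic ribosomal proteins, 38 oxidative phosphorylation genes and 39 mitochondrial ribosomal proteins were called lower, and RPS21 moved from -0.52 to -0.33 log2. In the fit of 1 library against 2 without those above 1 CPM of COL1A2, 72, 32 and 31 were.

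**Figure D4:**
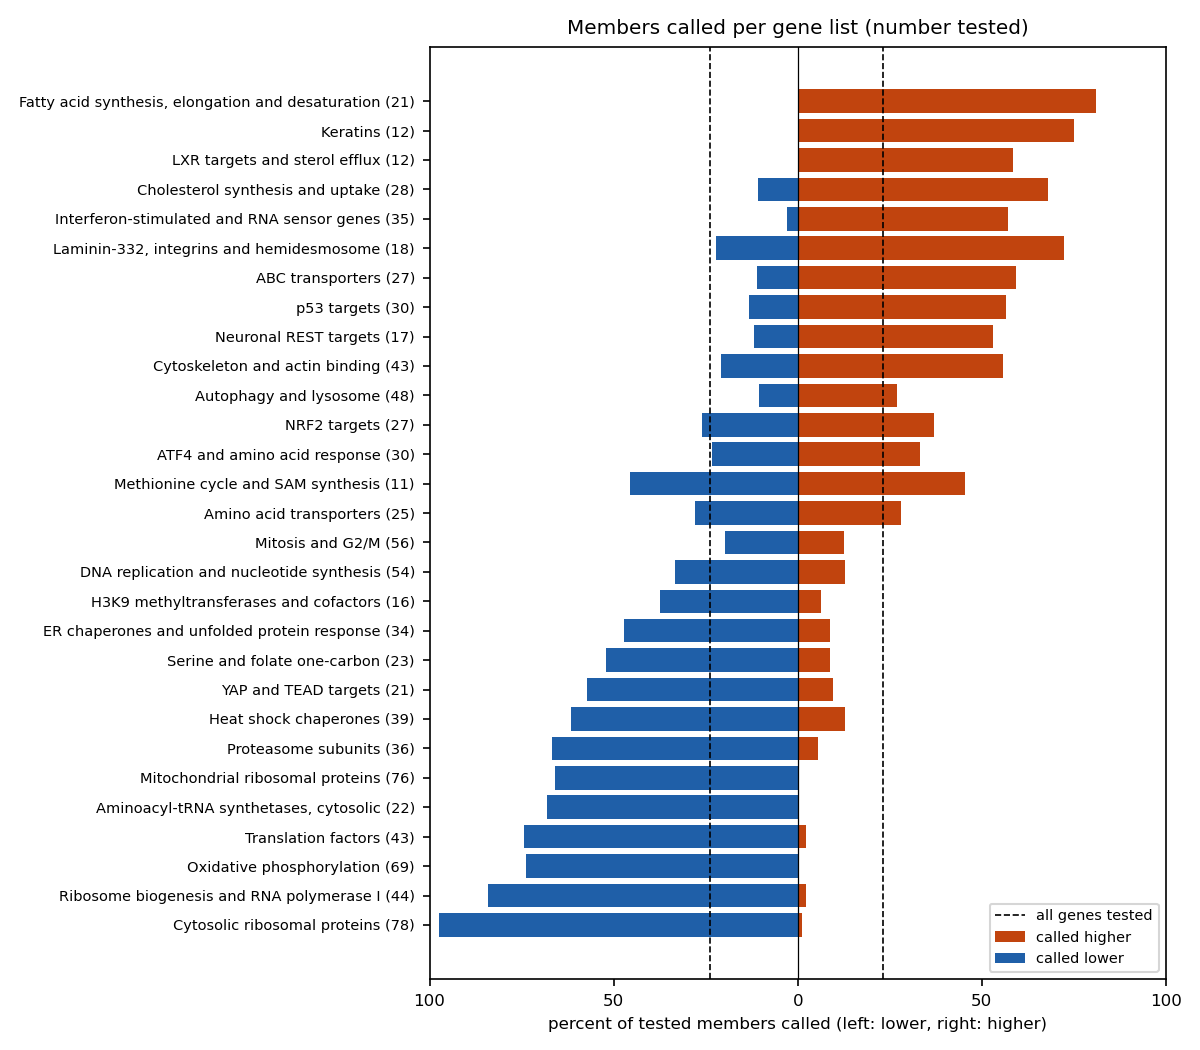
Percent of the tested members called higher (right, orange) or lower (left, blue) after UNC0642 recovery, for a selection of the 54 gene lists. Dashed lines mark the shares of all genes tested (23.1% and 23.8%), and the number tested is in brackets. Lipid, keratin, laminin and interferon lists lie to the right, while ribosomal, translation and oxidative phosphorylation lists lie to the left, up to 76 of 78 members.

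Cell cycle genes as lists stayed near or below the shares of all genes (23.1% higher, 23.8% lower), apart from the falls in replication. Of 56 mitosis genes 7 rose (12.5%) and 11 fell (19.6%), and of 54 replication genes 7 rose and 18 fell (33.3%). MYC, a driver of ribosome and nucleotide synthesis, was at 411, 402, 411 and 400.1 CPM at 0 h and 345, 332.3, 344 and 341 CPM after recovery and fell by 0.26 ± 0.03 log2. CDK4 fell from a range of 269 to 278 CPM at 0 h to one of 224 to 239.9 CPM, and RBL2, a pocket protein that restrains E2F genes, rose 1.596-fold. With library totals only, 20 mitosis genes were called higher and 5 lower, and 12 replication genes higher and 11 lower, so the direction of both tallies depended on the scaling.

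Single signalling genes changed in each direction. Of 25 immediate early genes 6 rose (24.0%) and 8 fell (32.0%), near the 23.1% and 23.8% of all genes, and with library totals only 7 were called higher and 6 lower. EGR1 was at 45.3, 47.9, 53.99 and 54.5 CPM at 0 h and 73.1, 74.8, 83.5 and 73.3 CPM after recovery (0.60 ± 0.05 log2) and JUN rose by 0.56 ± 0.06, whereas CYR61, a matricellular YAP target, fell by 0.43 ± 0.05. Of 21 YAP and TEAD genes 12 fell (57.1%) and 2 rose (9.5%), against 23.8% and 23.1% of all genes, with TEAD1 at -0.24 ± 0.03 log2. DUSP5, a phosphatase induced by ERK, fell from a range of 147 to 157 CPM at 0 h to one of 112 to 119 CPM. Ligands and receptors of the EGF family were higher in 7 of 15 (46.7%) and lower in 2 (13.3%), against 23.1% and 23.8% of all genes. TGFA was at 47.6 to 58.9 CPM at 0 h and 72.2 to 74.2 CPM after recovery, and NRG1 rose 1.77-fold. CXCL8, listed as IL8, was at 0.361, 0.56, 0.138 and 0.278 CPM at 0 h and 1.58, 1.04, 1.42 and 1.42 CPM after recovery, with no overlap between the groups. Of 17 neuronal genes of the REST repressor 9 rose (52.9%) and 2 fell (11.8%), beside the same shares of all genes. The secreted peptide precursor VGF was at 41.3, 40.2, 41.4 and 41.1 CPM at 0 h and 93.6, 92.4, 93.5 and 98.7 CPM after recovery, 2.303-fold higher.

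The same 40 rises and falls were then set against the DMSO recovery libraries, which went through restriction and refeeding with vehicle. Both recovery groups share the 0 h libraries, so UNC0642 and DMSO recovery were compared directly in a fit of all 12 libraries. In that contrast 584 of 12741 genes (4.58%) were called, 262 higher with UNC0642 (2.06%) and 322 lower (2.53%). Of the 20 largest falls 12 were lower with UNC0642 than with DMSO and none was higher. Of the 20 largest rises 9 were higher and none lower. HIST2H2AA3 and HIST2H2AA4, listed with the same values, are counted separately among the rises. The 40 were chosen for their difference from 0 h in the same UNC0642 libraries, so these counts are a description.

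The genes that were lower were zinc-finger genes. ZNF567 averaged 8.08 CPM after DMSO recovery, near its 0 h values of 8.06 to 8.96 CPM, and differed from UNC0642 recovery by -0.93 ± 0.12 log2 (adjusted p = 2.48e-06). ZNF266, at 11.9 CPM with DMSO, differed by -0.93 ± 0.11, ZNF480 by -0.76 ± 0.06 and ZNF274 by -0.91 ± 0.12. All 12 lie on chromosome 19. TNNC1 and SLC43A2, in contrast, averaged 1.49 and 17.5 CPM with DMSO, near their UNC0642 values, and were not called (0.12 ± 0.22 and -0.17 ± 0.07 log2).

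Among the rises the difference between the recovery groups varied by gene. KRT81 averaged 10.01 CPM with DMSO, between the 0 h and UNC0642 levels, and was higher with UNC0642 by 1.01 ± 0.09 log2 (adjusted p = 1.85e-09). HIST1H1C, at 24.6 CPM with DMSO, was higher by 0.89 ± 0.06, and COL17A1 by 0.93 ± 0.23. HIST2H2AA3 and HIST2H2AA4, KRT7, ABCA3, HLA-DRB1 and CALB2 make up the other 6. LIPG, MAP2 and SYNPO were not called, at 0.02 ± 0.15, 0.05 ± 0.10 and 0.13 ± 0.10 log2, which does not show that they were equal. Of 28 cholesterol genes 15 were lower with UNC0642 than with DMSO and none higher, and of 21 fatty acid genes 8 were lower and 1 higher. The shares of all genes in this contrast were 2.53% lower and 2.06% higher. FASN, SCD and INSIG1 were lower, at -0.19 ± 0.03, -0.24 ± 0.02 and -0.56 ± 0.04 log2, although they were above 0 h. The fatty acid gene that was higher was ACSL5, an acyl-CoA synthetase (0.53 ± 0.03, adjusted p = 5.41e-14), while ELOVL5 (-0.02 ± 0.03), SREBF1 (0.00 ± 0.03) and LPCAT3 (0.05 ± 0.04) were not called. MAT1A was higher with UNC0642 (1.19 ± 0.23, adjusted p = 8.15e-04) and MAT2A was not called (-0.01 ± 0.02). EGR1 averaged 32.6 CPM with DMSO, below every 0 h library, and was higher with UNC0642 by 1.23 ± 0.06 log2. Lists other than the lipid ones differed too. With UNC0642 14 of 25 immediate early genes, 7 of 12 keratins and 7 of 21 ERK feedback and output genes were higher, and none was lower. Among 392 ZNF genes 96 were lower and 1 was higher. EHMT1 and EHMT2 were not called (0.00 ± 0.04 and -0.01 ± 0.03).

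**Figure D5:**
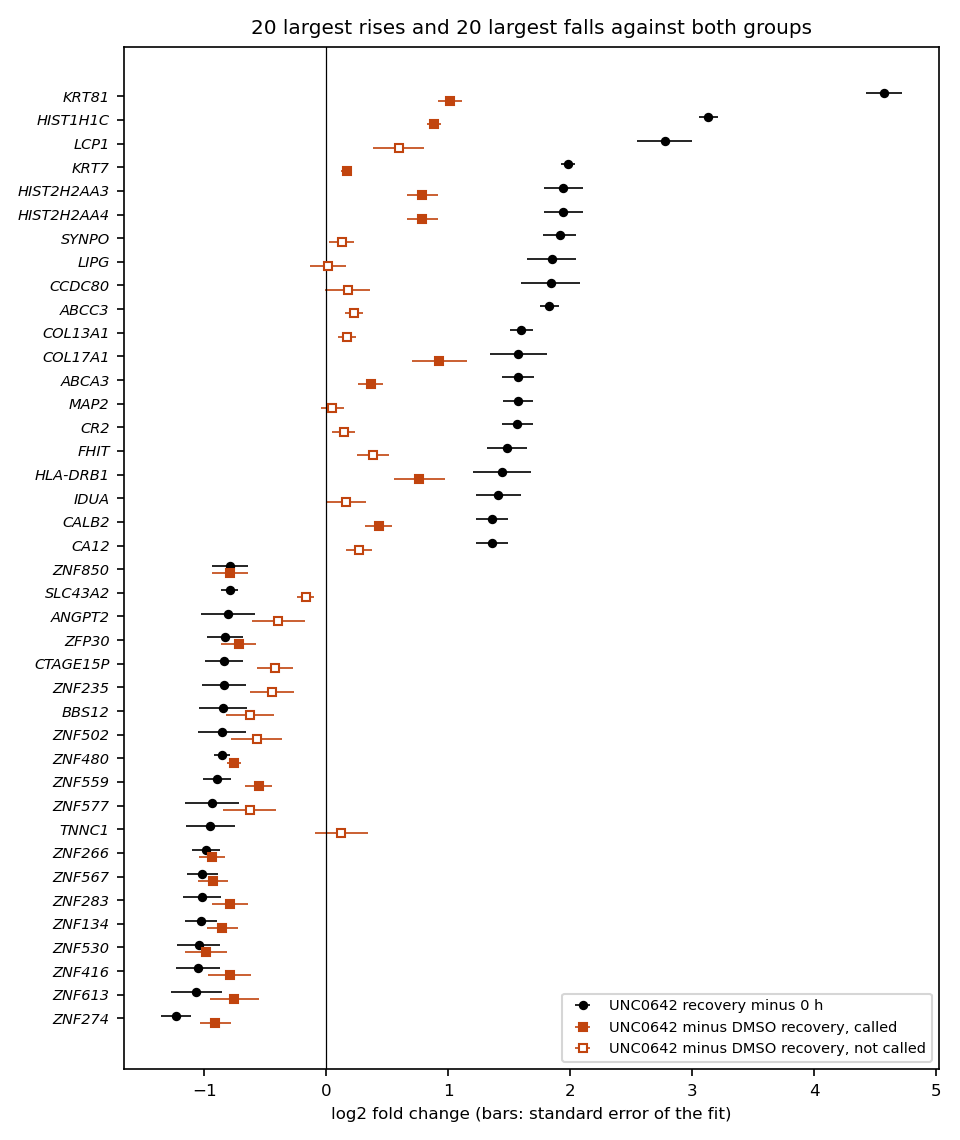
Log2 fold changes with standard errors of the 20 largest rises and 20 largest falls, UNC0642 recovery against 0 h (black circles) and against DMSO recovery (orange squares, filled where called). The gap between both values varies among the zinc-finger genes, from ZNF850 at -0.79 and -0.79 to ZNF235 at -0.84 and -0.44, and for rises such as LIPG (1.85 and 0.02) it is wide.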

How the data were processed

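Per the labels' protocols, Trizol was used to extract total RNA and a company (Novogene) prepared the libraries. The authors used RSEM 1.2.4 and Bowtie with hg18, per the submitters' processing notes. Whether reads were stranded is not given in the sources used here; genes that overlap or have an antisense partner are uncertain for that reason. The deposited tables give expected counts (estimates that need not be whole: 53.8% to 57.6% of those above 0 were whole within 0.005), FPKM, lengths and effective lengths per gene, per the file headers.

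Expected counts of the 4 UNC0642 recovery and 4 0 h libraries were rounded and filtered with filterByExpr. The two-sided quasi-likelihood test of edgeR 4.0.16 (R 4.3.3) was run with TMM factors, and p-values were adjusted by Benjamini-Hochberg over all 12575 genes tested, with calls at adjusted p under 0.05. Errors are standard errors from the fit, and CPM are TMM-normalized. Values against DMSO recovery, and DMSO means, come from a fit of all 12 libraries. Mean TMM factors were 0.979 at 0 h and 1.021 after recovery. Chi-square values of the 12 within-group pairs, divided by their degrees of freedom, were 2.04 to 3.56, so no library was treated as a duplicate. The test was checked on simulated data.

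Members and the 54 gene lists were chosen with earlier results of these data known. Named genes are the 20 largest rises and falls (called, mean log2 CPM of at least 1, no overlap, no small or unnamed RNA genes), the 10 largest gains and losses in CPM, up to 4 members per list by smallest p, and EHMT1, EHMT2, MAT2A and ASNS. No gene had a count of 0 in every library of one group and at least 10 in every library of the other. Some list members that the rule or the text would name are counted but not reported by name here. Other list members were named, and the printed promoters picked, after their values or matches were seen. Chromosomes were taken from RefSeq (GRCh38.p14), where 12470 of the genes tested (99.2%) had a place, and 11 promoter motifs were searched on both strands (the TATA box TATAAA, the CCAAT box, the GC box GGGCGG, the ETS site, a sterol element, the E-box CACGTG, the CRE, the amino acid response element, and the NRF1, ZBTB33 and ZNF143 motifs). Alternatives covered scaling, filters, rounding, replicate block, gene length, gap class, COL1A2, DESeq2 1.42.0, limma 3.58.1 (voom, and log2 FPKM with a pseudocount of 1), all 12 libraries, and each library left out. The length offset was centred again after its first output had been seen, because it had also removed each library's mean level.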

Additional observations from a re-analysis of the deposited data

Results flagged for a closer look

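In 3 of 88 groups of 4 libraries examined, over the 40 largest rises and falls and the genes always named, 1 library stood apart by Dixon's criterion at 95%, which chance does in about 1 in 20 groups. All 3 were 0 h replicate 3. ZNF530 was at 7.09 CPM there and at 5.05 to 5.15 CPM in the other 0 h libraries, ZNF502 was at 2.62 CPM against 3.69 to 3.73 CPM, and EHMT2 was at 133.5 CPM against 124.2 to 125.2 CPM. The calls of ZNF530 and ZNF502 and the absence of a call for EHMT2 were the same without that library.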

How the results depend on the processing

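The count of genes called was 5906, with 2907 higher and 2999 lower. With library totals only, 1931 were called lower, and with log2 FPKM 1798 were, while 205 and 24 passed 1.5-fold higher and lower. In the short-gap libraries alone 3879 genes were called, 1877 of them higher, and 4500 in the long-gap libraries. Without the 5 libraries above 1 CPM of COL1A2 (0 h replicates 1, 2 and 3, recovery replicates 3 and 4), which leaves 1 library against 2, 2824 were called, 1364 higher and 1460 lower. These fits hold fewer samples. The lone 0 h library is then assumed to vary like the recovery libraries. Leaving out each library in turn gave 5367 to 5677 calls, 2605 to 2789 higher and 2648 to 2921 lower, 564 to 619 over 1.5-fold higher and 106 to 116 lower. The number of the 40 largest rises and falls that differed from DMSO recovery was 21, and 17 to 21 with a library left out. DESeq2 called 5410 genes, limma-voom 5856 and the fit of all 12 libraries 5990.

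Same-numbered replicates did not deviate together (correlations of -0.001 to 0.113, and 3 of 8 libraries correlated best with their own number). With the replicate block 5938 genes were called, 5821 of them genes of the unblocked fit in the same direction, and 5846 with the block and the length correction together. Of 239 named genes, none changed direction in an alternative if it was called there or in the main fit. Changes of sign in genes called in neither, which may include EHMT2, were not counted. More genes lost their call without the libraries above 1 CPM of COL1A2 than in any other alternative, where at most 10 did. Below 1 CPM, as for LCP1 or MAT1A at 0 h, counting error widens the standard errors.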
